A study of Mus musculus with 8 samples.

Results

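The contractile genes of myofibroblasts were described in cells sorted from the synovium of ankle and wrist joints of mice. They are 8 genes chosen by name, Acta2, Tagln, Cnn1, Myl9, Tpm1, Tpm2, Cald1 and Lrrc15, of 32285 genes measured. They were picked because several of them differed between animals given an IL-17 inhibitor and animals given a TNF inhibitor, so that contrast is described here without a test. The values are unique molecular identifiers (UMIs, one per captured mRNA molecule) in the cells that the authors annotated, summed per animal and per annotated class. Levels are given as CPM, which are UMI counts scaled to 1000000 UMIs of the summed cells. Fold changes are on the log2 scale after TMM scaling between animals.

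A fibroblast that assembles stress fibres of smooth muscle actin is called a myofibroblast, and it contracts and stiffens the matrix around it. Acta2 encodes that actin. Tagln (transgelin), Cnn1 (calponin) and Cald1 (caldesmon) encode proteins that bind actin filaments, Myl9 encodes a regulatory light chain of myosin, and Tpm1 and Tpm2 encode tropomyosins that lie along the filament. Lrrc15 encodes a membrane protein used as a marker of myofibroblasts induced by transforming growth factor beta (TGF-beta). Smooth muscle cells and pericytes, the mural cells of vessels, share most of this gene set. In those cells many contractile genes are under serum response factor, which binds the CArG box.

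Arthritic animals carried the human TNF transgene 197 (hTNFtg197+, strain label B6-Tg(TNF)197Gkl) and had received Il23mc for 9 days, a treatment named only by that term in the labels. All mice were 8 to 10 weeks old. The 5 FAP-sorted animals were arthritic, received no inhibitor, and had cells sorted as CD45- FAP+ Pdpn+ pooled in 1 library. The other 3 libraries held CD45- cells not enriched for FAP and Pdpn. One held 3 IL-17-inhibited arthritic animals, one held 3 TNF-inhibited arthritic animals and one held 3 untreated arthritic animals. Each of these libraries also held 1 healthy wild-type animal with no treatment. The sources used here do not name the promoter that drives the transgene. Because each treatment filled its own library, treatment and library cannot be told apart in the arthritic animals. The labels say that the animals are separate, so the animal was the replicate.

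Fibroblasts were the 5 annotated classes Mmp3+, Il6+, Cd200+, Pi16+ and Lining, and the annotation also held chondrocytes and osteoblasts. The annotation covered 24227 of 47658 barcodes. It left 5893 fibroblasts of FAP-sorted, 5087 of IL-17-inhibited, 4305 of TNF-inhibited, 4743 of untreated arthritic and 1703 of healthy animals. Each library held 149149135 to 180057537 UMIs, and each animal's summed fibroblasts held 4508588 to 36786390. Pairs of libraries shared 32 to 51 barcodes, 7 to 12 of them annotated in both. Lining cells carried Prg4 at 63940 CPM, Pi16+ cells carried Pi16 at 1636 and osteoblasts carried Ibsp at 8448. In the chondrocyte class the defining cartilage genes were low, with Col2a1 at 33.5 and Acan at 63.0 CPM beside Col1a1 at 7973. The class is therefore called by the authors' name only. The healthy animals of the TNF-inhibited and the IL-17-inhibited library held both fibroblasts with Y-linked UMIs, at 23.1% and 17.7%, and fibroblasts with Xist alone, at 65.4% and 67.3%. Their hashtag assignment is therefore doubtful, and contrasts with healthy animals are also given with only the untreated library's healthy animal where it had at least 20 cells. A lone healthy animal is assumed to vary like the animals of the other groups.

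The promoters of Acta2 and Myl9 are printed because they were the members' promoters in which CArG-like boxes were found. The motif searched was CC, then 6 bases of A or T, then GG, with at most 1 mismatch allowed in the A/T core, and this pattern reads the same on both strands. The sequences are the 250 bases before each gene's RefSeq start in the RefSeq promoter table (build GRCm38.p6), with the boxes in capitals, and distances are counted from that start. The GENCODE gene spans given with the members begin further upstream, 217 bases before the RefSeq start for Acta2 and 44 bases before it for Myl9. The last 217 of the 250 Acta2 bases, with both boxes, therefore lie inside the gene as GENCODE draws it. For Myl9 the last 44 bases lie inside it, and the boxes lie outside. The Acta2 stretch is chr19:34255374-34255623 on the minus strand, and its boxes begin 84 and 34 bases before the RefSeq start, each with 1 mismatch. The Myl9 stretch is chr2:156775214-156775463 on the plus strand, with an exact box that begins 161 bases before the start and a box with 1 mismatch that begins 99 bases before it.
Acta2: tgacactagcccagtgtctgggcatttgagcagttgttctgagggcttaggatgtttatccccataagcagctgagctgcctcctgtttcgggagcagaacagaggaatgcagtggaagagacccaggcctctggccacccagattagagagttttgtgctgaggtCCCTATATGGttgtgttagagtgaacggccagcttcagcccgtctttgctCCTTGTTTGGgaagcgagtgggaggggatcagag
Myl9: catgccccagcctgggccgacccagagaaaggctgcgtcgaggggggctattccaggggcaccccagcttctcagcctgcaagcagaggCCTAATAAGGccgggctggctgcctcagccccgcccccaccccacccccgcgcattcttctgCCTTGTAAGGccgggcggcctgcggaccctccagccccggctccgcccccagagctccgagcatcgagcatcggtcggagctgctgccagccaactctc
Of the 8 members, 7 had an entry in the table, with 8 promoters in all. An exact box was found in 1 of these 8 promoters, against 1.63% of 32851 promoters of the same 300 bases. A box with at most 1 mismatch was found in 2 of the 8, against 9.98% of all promoters. A match describes letters and is not a shown binding site.

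Acta2, the smooth muscle actin gene (mm10 chr19:34241090-34255590, minus strand), was lowest in TNF-inhibited and healthy fibroblasts and higher in the other arthritic groups. In summed fibroblasts its level was 51.2, 27.7, 71.4, 58.3 and 34.3 CPM in the FAP-sorted animals. It was 39.4, 45.9 and 47.0 in IL-17-inhibited animals, 7.78, 7.49 and 8.73 in TNF-inhibited animals, and 29.2, 19.7 and 25.0 in untreated arthritic animals. The 3 healthy animals had 6.02, 13.8 and 9.54 CPM. No IL-17-inhibited animal overlapped an untreated arthritic one, and every TNF-inhibited animal lay below every untreated arthritic animal. The healthy animals overlapped the TNF-inhibited ones. The healthy values are given 1 per library, in the order untreated, TNF-inhibited and IL-17-inhibited. Those of the TNF-inhibited and IL-17-inhibited libraries come from animals of doubtful hashtag assignment. With 1 animal per library, a library difference could not be judged from them.

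Across all 5 fibroblast classes together, Acta2 fell under TNF inhibition and rose under IL-17 inhibition, each against untreated arthritis. The log2 fold change was -1.55 ± 0.20 for TNF inhibition (SE, adjusted p = 0.0044) and 0.80 ± 0.19 for IL-17 inhibition (adjusted p = 0.023, 3 animals in each group). The test was edgeR's quasi-likelihood test with Benjamini-Hochberg adjustment over all genes. It gave every adjusted p here except those with a fixed class mix, which come from limma. Both contrasts share the untreated arthritic animals, and the inhibitor-treated animals are those on which the genes were picked. The call under TNF inhibition held with each animal left out. The call under IL-17 inhibition was lost without untreated arthritic animal 2 or 3 or IL-17-inhibited animal 2 or 3, with adjusted p up to 0.11. With a library term, which rests on the 1 healthy animal per library, the log2 difference from untreated arthritis was -2.81 under TNF inhibition (adjusted p = 0.30) and 0.08 under IL-17 inhibition (adjusted p = 0.99). A fixed mix was set for the classes other than Pi16+, whose cells were too few in some animals. In that mix the difference was -1.33 under TNF inhibition (adjusted p = 0.20) and 0.89 under IL-17 inhibition (adjusted p = 0.40). No other member passed under an inhibitor with the library term or with the fixed mix. Between the inhibitors, a contrast given without a test, Acta2 in IL-17-inhibited over TNF-inhibited animals differed by 2.35 ± 0.20 on the log2 scale.

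**Figure D1:**
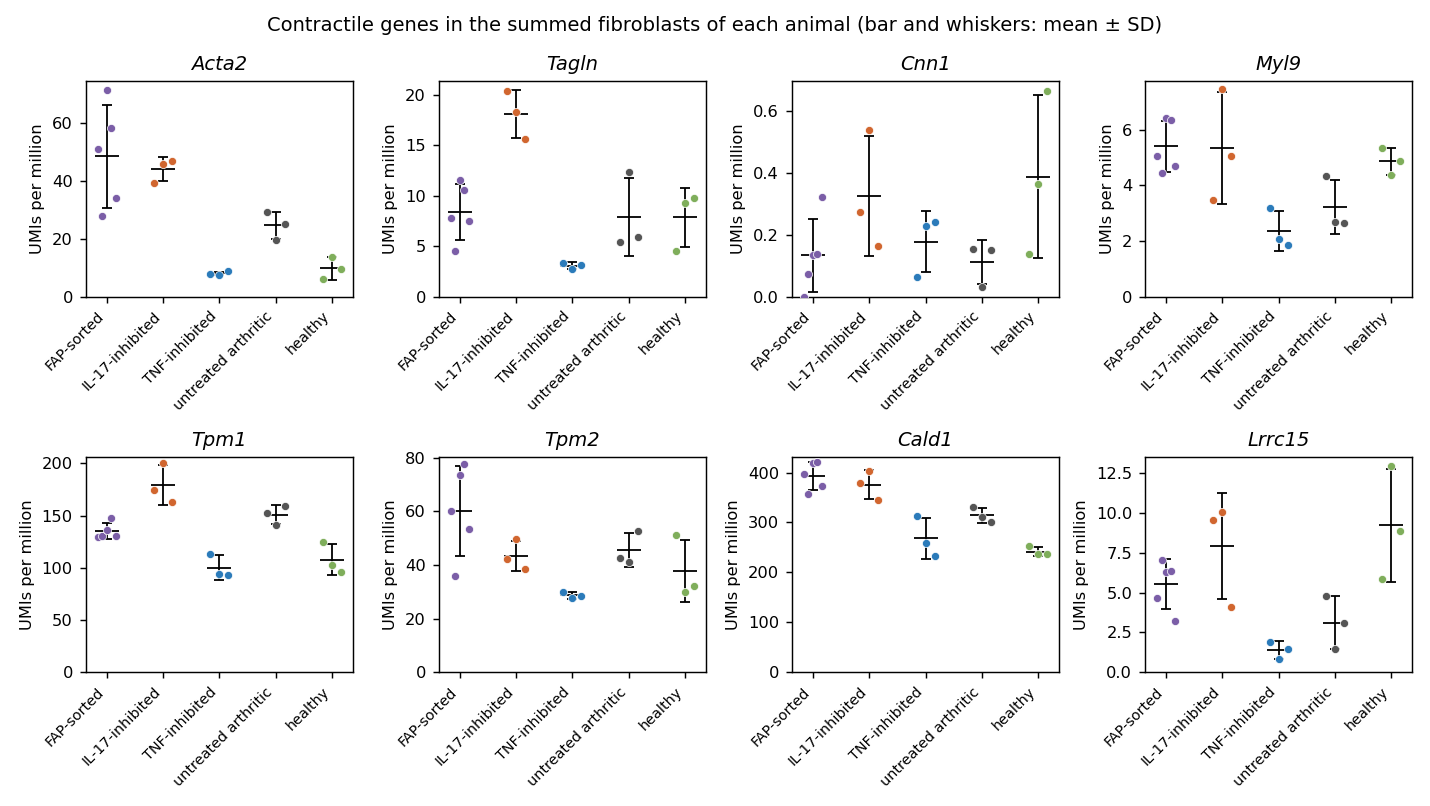
Each panel shows 1 gene in summed fibroblasts, with CPM on the vertical axis and the 5 groups along the horizontal axis; points are animals and bars are the mean ± SD. Acta2 averaged 48.6 ± 17.8 in 5 FAP-sorted, 44.1 ± 4.09 in 3 IL-17-inhibited, 8.00 ± 0.646 in 3 TNF-inhibited, 24.6 ± 4.75 in 3 untreated arthritic and 9.80 ± 3.92 in 3 healthy animals.

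Mmp3+ cells carried most of the Acta2 difference between the inhibitors. Within Mmp3+ cells Acta2 stood at 62.5, 73.5 and 73.2 CPM in IL-17-inhibited animals, at 9.09, 8.97 and 11.8 in TNF-inhibited animals and at 49.7, 31.9 and 35.8 in untreated arthritic animals. The 3 groups did not overlap in these cells. Acta2 fell there under TNF inhibition (log2 fold change -1.94 ± 0.18, adjusted p = 0.0018), a call that held without any single animal. IL-17 inhibition raised it by 0.74 ± 0.16 (adjusted p = 0.017), and that call was lost in 4 of the 6 fits that left out an animal, with adjusted p up to 0.071. IL-17-inhibited over TNF-inhibited animals, the log2 difference in Mmp3+ cells was 2.68 ± 0.18.

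Acta2 was also called in Cd200+ cells under IL-17 inhibition, but not in Lining or Il6+ cells. In Cd200+ cells Acta2 stood at 42.2, 50.2 and 40.0 CPM in IL-17-inhibited, at 7.18, 20.8 and 6.77 in TNF-inhibited, and at 10.8, 10.7 and 25.0 in untreated arthritic animals. It rose there under IL-17 inhibition against untreated arthritis (log2 fold change 1.41 ± 0.34, adjusted p = 0.048), while the difference under TNF inhibition was -0.40 ± 0.41 (adjusted p = 0.72). In Lining cells the values were 9.99, 21.0 and 18.0 in IL-17-inhibited, 3.90, 1.14 and 1.87 in TNF-inhibited, and 11.5, 6.71 and 6.40 in untreated arthritic animals. Against untreated arthritis, neither the 1.05 ± 0.38 under IL-17 inhibition (adjusted p = 0.25) nor the -1.68 ± 0.52 under TNF inhibition (adjusted p = 0.13) passed the test. In Il6+ cells the values were 12.2, 15.9 and 15.4 in IL-17-inhibited, 5.47, 4.02 and 6.50 in TNF-inhibited, and 8.71, 6.27 and 9.74 in untreated arthritic animals. Their log2 differences from untreated arthritis were 0.86 ± 0.26 under IL-17 inhibition (adjusted p = 0.11) and -0.55 ± 0.30 under TNF inhibition (adjusted p = 0.42). Whether the inhibitor effect differs between classes was not tested.

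The difference was also present outside the 5 fibroblast classes. In cells annotated as chondrocytes Acta2 was at 132, 65.8 and 74.0 CPM in IL-17-inhibited, at 12.4, 8.92 and 9.74 in TNF-inhibited, and at 24.2, 37.1 and 27.1 in untreated arthritic animals. All IL-17-inhibited animals lay above all untreated arthritic ones, and the rise was 1.58 ± 0.24 on the log2 scale (adjusted p = 0.010). Acta2 was 1 of 21 genes called there, or 0.234% of 8958 tested, and the one member of 7 called. Under TNF inhibition the log2 difference in these cells was -1.41 ± 0.37 (adjusted p = 0.28), where 0% of genes were called by edgeR, with 1 of 7 members at an unadjusted p under 0.05. In osteoblasts Acta2 was at 58.7, 126 and 83.7 CPM in IL-17-inhibited, 53.3, 4.60 and 11.2 in TNF-inhibited, and 104 and 53.1 in the 2 untreated arthritic animals that had at least 20 osteoblasts. The inhibitor groups did not overlap there, while the untreated arthritic animals overlapped both. No member was called in osteoblasts by edgeR under TNF inhibition (background 0.725%), with 3 of 7 at an unadjusted p under 0.05, or under IL-17 inhibition (background 0.453%), with 1 of 7.

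Classes were ordered by Acta2 within animals that had at least 20 cells of both classes. Mmp3+ cells lay above Lining and Il6+ cells in 15 of 15 animals, above Cd200+ cells in 13 of 15 and above Pi16+ cells in 10 of 10. They lay above the chondrocyte class in 9 of 13, so those neighbours did not separate. Osteoblasts lay above Mmp3+ cells in 10 of 14 animals. Cd200+ cells lay above Il6+ cells in 16 of 17 animals and above Pi16+ cells in 11 of 12. Lining lay above Il6+ cells in 9 of 17 and above Pi16+ cells in 6 of 12, which does not order these classes.

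**Figure D2:**
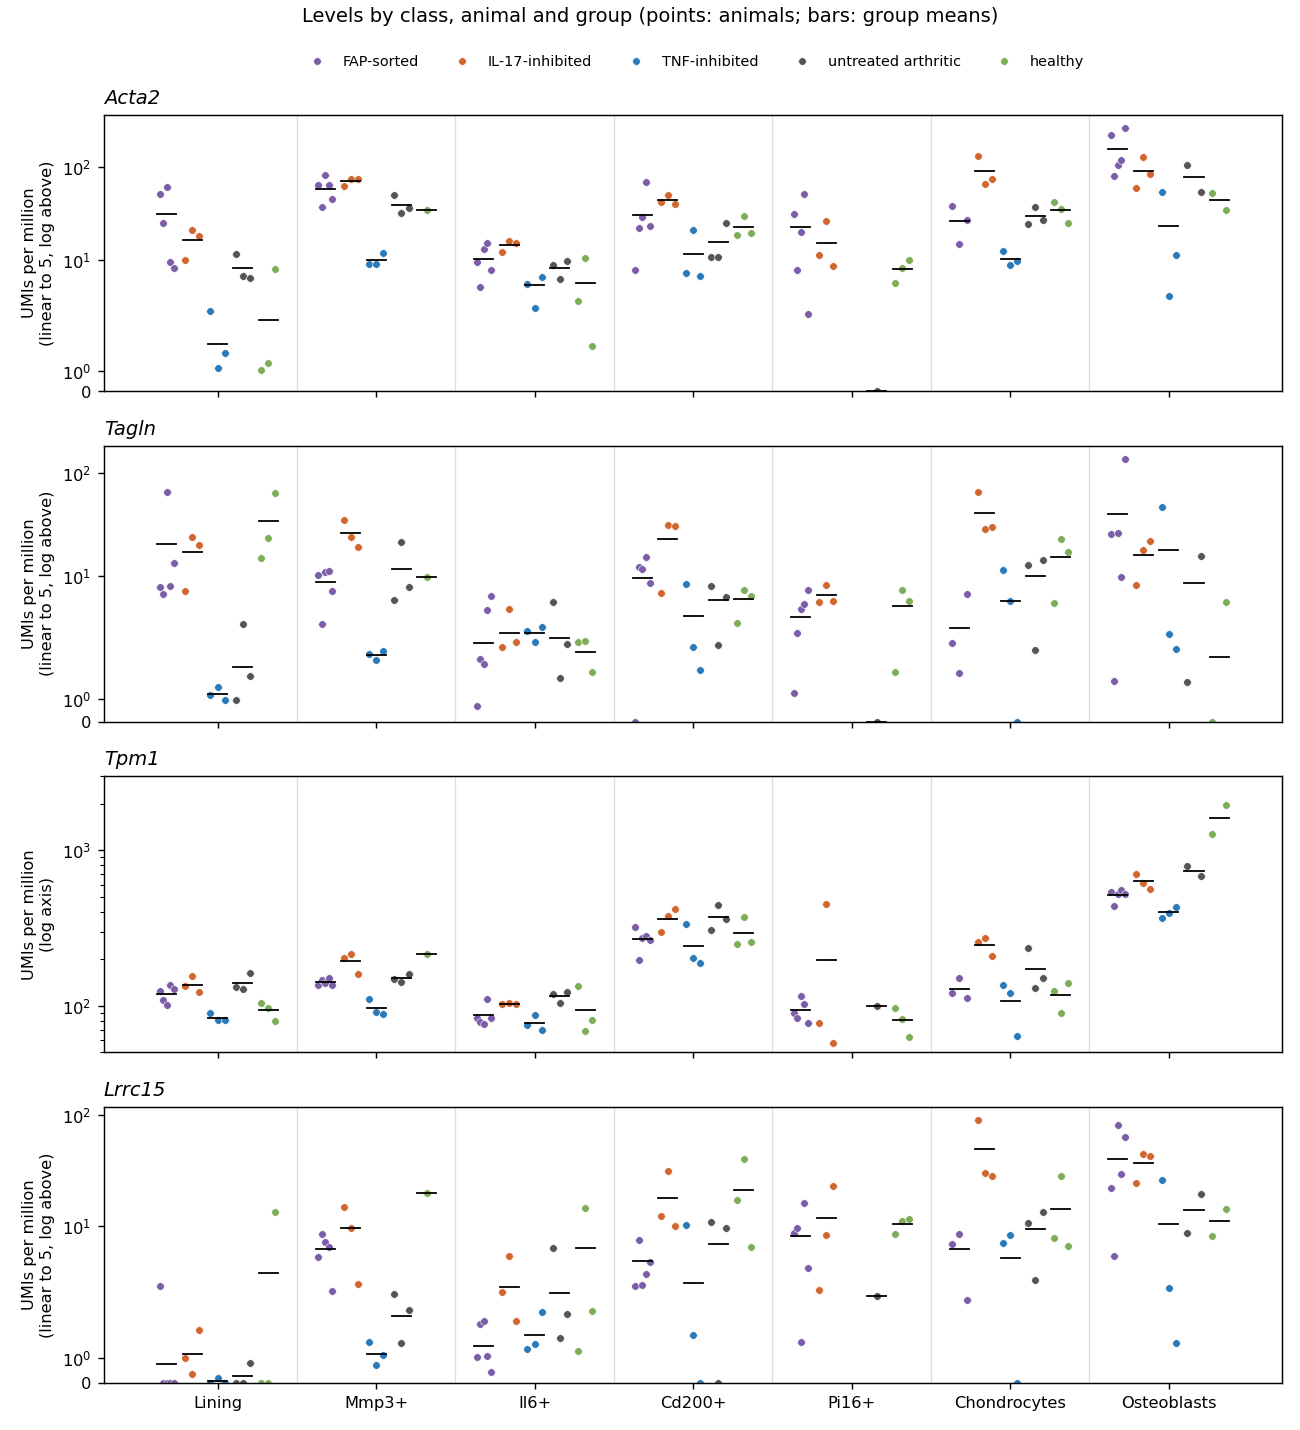
Levels of Acta2, Tagln, Tpm1 and Lrrc15 in each annotated class, in CPM of the summed cells of that class; each point is 1 animal with at least 20 cells of the class, coloured by group, and black bars are group means. Axes are linear up to 5 and logarithmic above, and logarithmic throughout for Tpm1. In Mmp3+ cells Acta2 was 62.5 to 73.5 in IL-17-inhibited, 8.97 to 11.8 in TNF-inhibited and 31.9 to 49.7 in untreated arthritic animals.

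Tagln encodes transgelin, an actin-bundling protein (mm10 chr9:45929619-45936058, minus strand). Its level in summed fibroblasts was 7.81, 4.53, 11.6, 10.6 and 7.47 CPM in FAP-sorted animals. It was 20.3, 18.3 and 15.6 in IL-17-inhibited, 3.32, 2.69 and 3.15 in TNF-inhibited, 5.40, 12.3 and 5.94 in untreated arthritic and 4.52, 9.29 and 9.76 in healthy animals. IL-17-inhibited animals lay above all others, and TNF-inhibited animals lay below all others. Against untreated arthritis Tagln fell under TNF inhibition (log2 fold change -1.33 ± 0.31, adjusted p = 0.030) and rose under IL-17 inhibition (1.11 ± 0.27, adjusted p = 0.027). One cell held 230 of the 408 Tagln UMIs of untreated arthritic animal 2, or 56.4%. Without each animal's cell richest in Tagln, the levels in summed fibroblasts were 3.13, 2.60 and 2.91 CPM in TNF-inhibited animals against 4.33, 5.38 and 5.09 in untreated arthritic animals. Without untreated arthritic animal 2 the fold change under TNF inhibition was -0.84 (adjusted p = 0.11), and the call was also lost without TNF-inhibited animal 2. The call under IL-17 inhibition was lost in 4 of the 6 fits that left out an animal, without untreated arthritic animal 1 or 3 or IL-17-inhibited animal 1 or 2. With every cell that held a UMI of a mural gene left out, the Tagln difference under TNF inhibition was -0.12 ± 0.31 (adjusted p = 0.87).

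By class, Tagln in Mmp3+ cells was at 35.6, 23.9 and 19.2 CPM in IL-17-inhibited, at 2.98, 2.72 and 3.11 in TNF-inhibited, and at 5.92, 21.5 and 7.84 in untreated arthritic animals. TNF inhibition lowered it there (log2 fold change -2.03 ± 0.45, adjusted p = 0.035), but the call was lost whichever of the 6 animals was left out, and without untreated arthritic animal 2 the value was -1.24. In Il6+ cells the inhibitor groups overlapped, with 3.26, 4.93 and 3.51 CPM in IL-17-inhibited and 3.95, 3.50 and 4.16 in TNF-inhibited animals. Tagln in Lining cells was at 0.955, 4.27 and 2.00 CPM in untreated arthritic animals, against 15.2, 23.5 and 63.9 in healthy animals. The log2 fold change in arthritis was -3.09 ± 0.63 (adjusted p = 0.0033), and with only the untreated library's healthy animal it was -2.11 ± 0.79 (adjusted p = 0.16). Myh11, the smooth muscle myosin heavy chain, was measured in summed fibroblasts and not in Lining cells alone. It was at most 0.808 CPM in the arthritic groups and at 0.821 to 8.20 in healthy animals. With only the untreated library's healthy animal, its log2 difference in arthritis was -1.33. The part of mural RNA in the Tagln values was not tested.

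Cnn1, calponin of smooth muscle (mm10 chr9:22099216-22109630, plus strand), was near the limit of detection. No animal had more than 17 Cnn1 UMIs in its summed fibroblasts, with 6, 17 and 6 in IL-17-inhibited, 2, 8 and 3 in TNF-inhibited and 2, 1 and 5 in untreated arthritic animals. It did not pass the filter on low counts in summed fibroblasts. In Mmp3+ cells it did, and its log2 difference from untreated arthritis was 2.15 ± 0.94 under IL-17 inhibition (adjusted p = 0.17) and 1.10 ± 1.05 under TNF inhibition (adjusted p = 0.58).

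Myl9, the regulatory myosin light chain (mm10 chr2:156775420-156781658, plus strand), was low in all groups. In summed fibroblasts it averaged 5.39 ± 0.922 CPM in FAP-sorted animals, 5.32 ± 2.01 in IL-17-inhibited, 2.37 ± 0.717 in TNF-inhibited, 3.22 ± 0.956 in untreated arthritic and 4.86 ± 0.482 in healthy animals (SD). Neither inhibitor changed it past the threshold against untreated arthritis, with log2 differences of 0.72 ± 0.28 for IL-17 inhibition (adjusted p = 0.13) and -0.29 ± 0.29 for TNF inhibition (adjusted p = 0.59). In Mmp3+ cells it was at 2.76, 5.51 and 3.88 CPM in IL-17-inhibited, and at 2.18, 2.10 and 1.18 in untreated arthritic animals. The groups did not overlap there, and Myl9 rose under IL-17 inhibition (log2 fold change 1.09 ± 0.30, adjusted p = 0.043), a call lost in 5 of the 6 fits that left out an animal, with adjusted p up to 0.16.

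Tpm1 and Tpm2, the tropomyosins, fell under TNF inhibition. Tpm1 (mm10 chr9:67022590-67049406, minus strand) stood at 130, 131, 136, 148 and 131 CPM in summed fibroblasts of FAP-sorted animals. It stood at 175, 201 and 163 in IL-17-inhibited, 114, 94.0 and 92.7 in TNF-inhibited, 152, 141 and 160 in untreated arthritic and 125, 103 and 96.3 in healthy animals. All TNF-inhibited animals lay below all untreated arthritic animals, and the fall was -0.52 ± 0.11 on the log2 scale (adjusted p = 0.022). The call was lost without untreated arthritic animal 1 or 3 or TNF-inhibited animal 2, with adjusted p up to 0.082. It was also lost, at -0.18 ± 0.12 (adjusted p = 0.39), when cells with a UMI of a mural gene were left out. Under IL-17 inhibition all 3 animals lay above all untreated arthritic animals, but the log2 difference of 0.19 did not pass the test (adjusted p = 0.29). Tpm1 fell under TNF inhibition in Mmp3+ cells (-0.57 ± 0.11, adjusted p = 0.024) and in Lining cells (-0.59 ± 0.14, adjusted p = 0.043). In Lining cells it was at 89.3, 81.0 and 80.6 CPM in TNF-inhibited against 132, 128 and 161 in untreated arthritic animals.

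Tpm2 (mm10 chr4:43514711-43523765, minus strand) was at 42.3, 49.5 and 38.5 CPM in summed fibroblasts of IL-17-inhibited, at 29.9, 27.5 and 28.5 in TNF-inhibited and at 42.5, 41.1 and 52.8 in untreated arthritic animals. TNF-inhibited animals lay below both other groups, and the fall against untreated arthritis was -0.59 ± 0.15 on the log2 scale (adjusted p = 0.042). This call was lost whichever of the 6 animals was left out, with adjusted p up to 0.15. It also ended, at 0.073 on the log2 scale (adjusted p = 0.74), without the cells that held a mural UMI. Skeletal muscle also expresses both tropomyosins, and muscle RNA differed between the groups. Summed over 9 skeletal muscle genes, fibroblasts held 67.0 to 118 CPM in IL-17-inhibited, 95.0 to 135 in TNF-inhibited, and 230 to 328 in untreated arthritic animals. The part of muscle RNA in the tropomyosin values was not tested.

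Cald1, caldesmon (mm10 chr6:34598500-34775473, plus strand), averaged 394 ± 28.0 CPM in summed fibroblasts of FAP-sorted, 375 ± 28.9 in IL-17-inhibited, 268 ± 40.6 in TNF-inhibited, 314 ± 15.0 in untreated arthritic and 242 ± 9.95 in healthy animals (SD). Neither inhibitor moved it past the threshold against untreated arthritis, with log2 differences of 0.20 for IL-17 inhibition (adjusted p = 0.24) and -0.15 ± 0.10 for TNF inhibition (adjusted p = 0.38). Untreated arthritic animals lay above healthy animals without overlap, as described with the arthritis contrast.

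Lrrc15, the myofibroblast surface marker (mm10 chr16:30269302-30283256, minus strand), was at 9.58, 10.1 and 4.13 CPM in summed fibroblasts of IL-17-inhibited, at 1.91, 0.829 and 1.45 in TNF-inhibited, and at 4.79, 1.45 and 3.11 in untreated arthritic animals. Healthy animals had 5.88, 12.9 and 8.87 CPM. IL-17-inhibited animal 3 overlapped the untreated arthritic range, and neither inhibitor changed Lrrc15 past the threshold over all fibroblasts. The log2 differences from untreated arthritis were 1.36 ± 0.43 for IL-17 inhibition (adjusted p = 0.070) and -1.01 ± 0.50 for TNF inhibition (adjusted p = 0.24). In Mmp3+ cells Lrrc15 stood at 14.9, 9.62 and 3.99 CPM in IL-17-inhibited and at 3.58, 1.63 and 2.95 in untreated arthritic animals. It rose there under IL-17 inhibition (log2 fold change 1.72 ± 0.46, adjusted p = 0.038), a call lost in 5 of the 6 fits that left out an animal, with adjusted p up to 0.15.

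The members were picked on a difference between these same inhibitor-treated animals. That choice can by itself move their counts and medians away from those of all genes, so the counts here are a description. Counted over the 7 members tested in summed fibroblasts, TNF inhibition changed 4 (Acta2, Tagln, Tpm1 and Tpm2), all of them lower, where 5.55% of 14348 genes were called against untreated arthritis and 3.02% were called lower. Without cells that held a mural UMI, 1 of these calls remained, that of Acta2. The members' median log2 difference was -0.59, against -0.0020 over all genes tested. IL-17 inhibition changed 2 (Acta2 and Tagln), both higher, where 8.45% of genes were called and 3.80% were called higher, with a median of 0.72 against 0.0088. In Mmp3+ cells TNF inhibition lowered 3 of 8 members, where 4.21% of genes were called and 2.03% were called lower. IL-17 inhibition raised 3 of 8 there, where 10.0% were called and 4.16% were called higher. In Lining cells 1 of 6 members was called under TNF inhibition (background 1.33%). Under IL-17 inhibition edgeR called 0 of 6 in Lining cells (background 0.495%), with 3 at an unadjusted p under 0.05. In Cd200+ cells 1 of 7 was called under IL-17 inhibition (background 1.48%) and 0 of 7 under TNF inhibition (background 1.07%), with 1 at an unadjusted p under 0.05. In Il6+ cells edgeR called 0 of 7 under TNF inhibition (background 0.254%), with 3 at an unadjusted p under 0.05, and 0 of 7 under IL-17 inhibition (background 2.24%), with 2.

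IL-17-inhibited over TNF-inhibited animals, the contrast on which the genes were chosen, the log2 differences in summed fibroblasts were 2.44 ± 0.30 for Tagln, 2.37 ± 0.47 for Lrrc15, 1.01 ± 0.28 for Myl9, 0.71 ± 0.11 for Tpm1, 0.47 ± 0.15 for Tpm2 and 0.36 ± 0.10 for Cald1. They are given as a description, with no test.

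**Figure D3:**
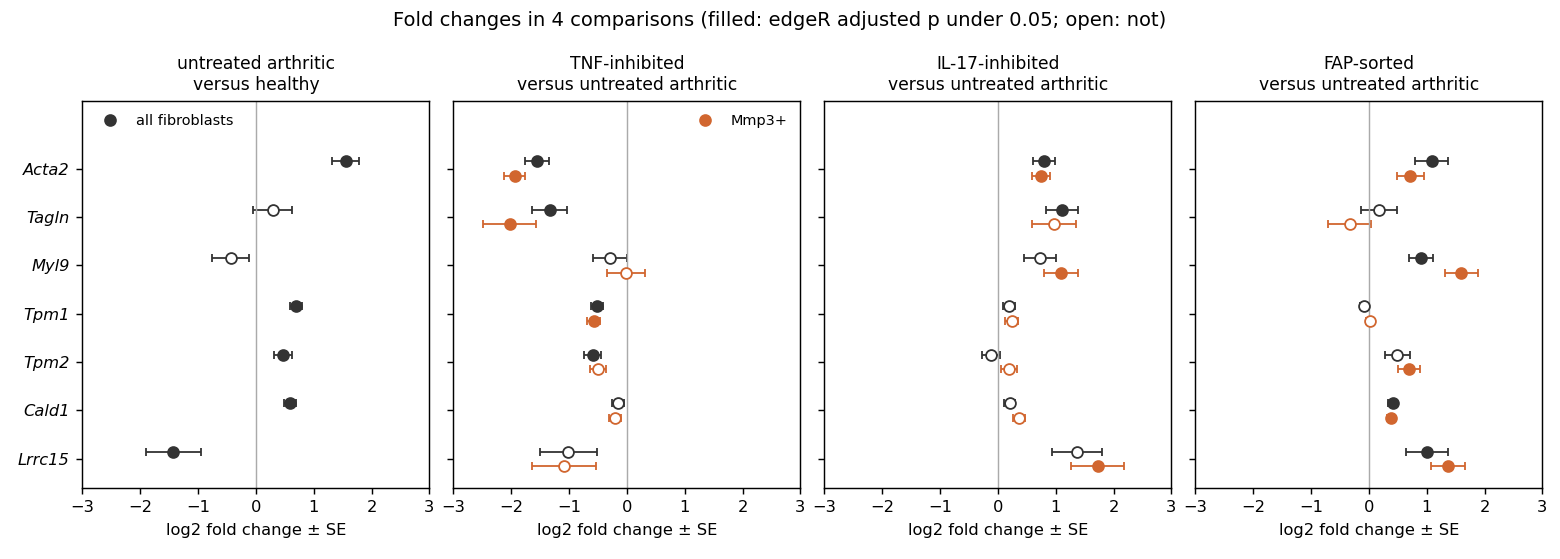
Log2 fold changes (edgeR, ± SE) of the members in summed fibroblasts and in Mmp3+ cells, for FAP-sorted, IL-17-inhibited and TNF-inhibited animals, each against untreated arthritic animals, and for untreated arthritic against healthy animals; filled points passed an adjusted p of 0.05, and arthritis against health could not be fitted in Mmp3+ cells. Acta2 was at -1.55 under TNF inhibition and at 0.80 under IL-17 inhibition in summed fibroblasts.

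Fibroblast Acta2 was low in the TNF-inhibited library although that library as a whole was not. Over all barcodes, annotated or not, Acta2 was at 104 CPM in the IL-17-inhibited library, 71.9 in the TNF-inhibited library and 34.9 in the untreated library. Annotated fibroblasts held 21.7%, 6.40% and 36.4% of those Acta2 UMIs. Barcodes outside the annotation with at least 3 of 7 mural genes (Rgs5, Myh11, Kcnj8, Abcc9, Higd1b, Des and Cspg4) held 41.5%, 73.1% and 33.1%, in the same order of libraries.

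Mural genes were measured in the annotated fibroblasts beside the members. The summed level of the 7 mural genes was 79.4 to 135 CPM in IL-17-inhibited, 48.1 to 57.1 in TNF-inhibited, 75.3 to 80.2 in untreated arthritic and 98.0 to 175 in healthy animals. Rgs5, a pericyte gene, was at 20.7 to 47.6 in IL-17-inhibited, 13.4 to 16.3 in TNF-inhibited and 19.96 to 25.9 in untreated arthritic animals. Cspg4 and Des were also higher in every IL-17-inhibited than in every TNF-inhibited animal. Abcc9, Kcnj8 and Myh11 overlapped between the inhibitors. IL-17-inhibited animals had Abcc9 at 2.78 to 4.59, Kcnj8 at 0.860 to 1.28 and Myh11 at 0.456 to 0.707, and TNF-inhibited animals had them at 2.59 to 4.83, 0.404 to 1.57 and 0.351 to 0.808. Higd1b, another pericyte gene, was at most 0.137 CPM. On the wider list of 10 mural genes, which adds Mcam, Ndufa4l2 and Notch3, 5 of the 9 tested had a positive log2 difference of IL-17-inhibited over TNF-inhibited animals. The summed level of that list overlapped, with 226 to 307 in IL-17-inhibited, 200 to 384 in TNF-inhibited, and 179 to 263 in untreated arthritic animals. In Mmp3+ cells the 7 genes summed to 77.4 to 127 CPM in IL-17-inhibited, 44.999 to 53.7 in TNF-inhibited and 64.6 to 78.6 in untreated arthritic animals. Within that sum Rgs5 was at 7.87 to 11.4 in IL-17-inhibited, 4.64 to 14.1 in TNF-inhibited and 14.2 to 19.3 in untreated arthritic animals, and Cspg4 was at 51.9 to 61.7, 27.9 to 31.3 and 27.6 to 36.1, in that order. The part of these genes in the members' differences was not tested beyond the following values. With every cell that held a UMI of the 7 genes left out, Acta2 still fell under TNF inhibition (log2 fold change -1.17 ± 0.23, adjusted p = 0.015) and rose under IL-17 inhibition (0.83 ± 0.21, adjusted p = 0.042). In those cells Tagln rose under IL-17 inhibition (1.64 ± 0.28, adjusted p = 0.0080), whereas its difference under TNF inhibition was -0.12 ± 0.31 (adjusted p = 0.87) and that of Tpm1 was -0.18 ± 0.12 (adjusted p = 0.39). Cells with such a UMI made up 47.4% of fibroblasts in IL-17-inhibited, 40.0% in TNF-inhibited and 40.8% in untreated arthritic animals. They were deeper, with a median of 19676.5 UMIs against 13555 in the remaining IL-17-inhibited fibroblasts.

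To find which classes carried the difference between the inhibitors, each member's difference in CPM of all fibroblast UMIs was split over the 5 fibroblast classes. Acta2 differed by 36.1, of which Mmp3+ cells held 75.8%, Cd200+ cells 11.1%, Il6+ cells 7.84%, Lining cells 4.28% and Pi16+ cells 0.97%. Tagln differed by 15.0, with 72.1% in Mmp3+, 14.9% in Cd200+ and 10.7% in Lining cells. Mmp3+ cells also held the largest part for Tpm2, at 59.2% of 14.8, for Lrrc15, at 58.5% of 6.53, for Cald1, at 52.5% of 107, and for Tpm1, at 41.9% of 79.4. For Myl9 the Cd200+ cells held 35.7% and the Mmp3+ cells 31.1% of a difference of 2.96. Mmp3+ cells made up 47.8% of fibroblast UMIs in IL-17-inhibited and 59.6% in TNF-inhibited animals, so their abundance ran against the difference. Of these members, only Acta2 and Tagln had Mmp3+ parts above these shares. The parts for Tpm2, Lrrc15 and Cald1 lay between the shares, and those for Tpm1 and Myl9 below them. By ratio, Acta2 differed about as much in Lining cells (means of 16.4 against 2.30 CPM) as in Mmp3+ cells (69.7 against 9.95). The ratio was smaller in Cd200+ (44.1 against 11.6) and Il6+ cells (14.5 against 5.33). When each class's difference was divided into a change of level within the class and a change of the class's share, the level accounted for 108% of the Acta2 difference, 106% for Tagln and 86.6% for Myl9. A value above 100% means that the shares acted in the opposite direction.

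**Figure D4:**
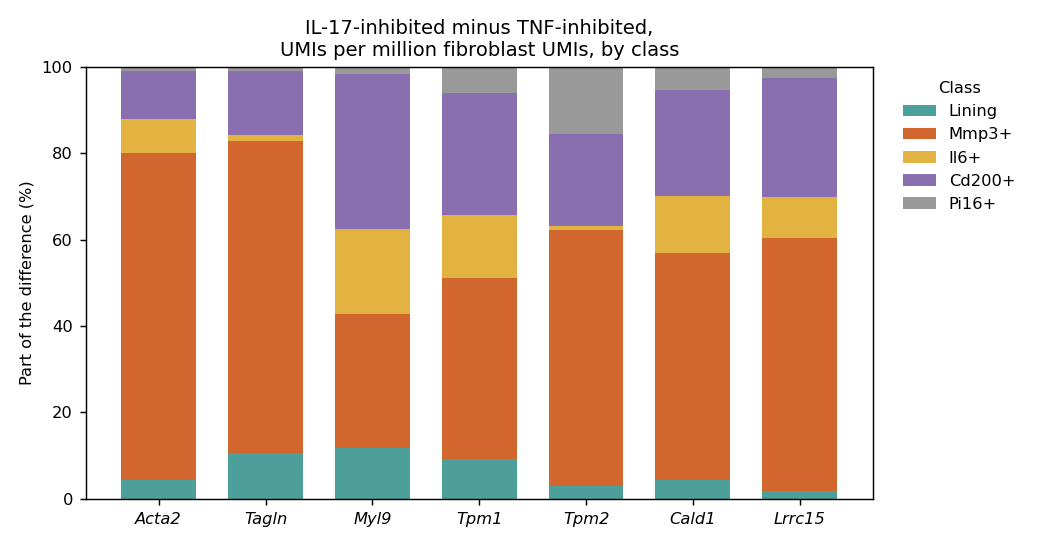
Bars give the percent of each member's difference, IL-17-inhibited minus TNF-inhibited, that each fibroblast class held, for 7 members; each gene's difference is in CPM of all fibroblast UMIs. Mmp3+ cells held 75.8% for Acta2 and 72.1% for Tagln, against 31.1% for Myl9.

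The differences from untreated arthritis were split in the same way. Under TNF inhibition Acta2 was 16.6 CPM lower than in untreated arthritis, of which Mmp3+ cells held 88.0%, and for Tagln they held 91.5%. Under IL-17 inhibition Acta2 was 19.5 CPM higher, with 65.4% in Mmp3+ and 20.3% in Cd200+ cells. For Tagln the parts were 62.9% in Mmp3+, 22.3% in Cd200+ and 15.0% in Lining cells.

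The share of Mmp3+ cells with an Acta2 UMI followed the levels. With each cell thinned to 3000 UMIs, 12.3% ± 1.33 of Mmp3+ cells had one in IL-17-inhibited animals, 3.58% ± 2.30 in TNF-inhibited and 7.22% ± 0.25 in untreated arthritic animals (SD, n = 3 each). FAP-sorted animals had 8.58% ± 2.04 (SD, n = 5). Without thinning the shares were 37.1%, 13.2%, 29.2% and 28.9% in the same order of groups. Fewer than 3000 UMIs were found in 23, 11, 25 and 15 of these cells, in that order, and they were left out. In Il6+ cells the thinned shares were 3.87% in IL-17-inhibited, 1.19% in TNF-inhibited and 1.85% in untreated arthritic animals, and in Lining cells they were 2.58%, 0.58% and 2.04%, in that order. Median depths of Mmp3+ cells were 21018 to 22105.5 UMIs in IL-17-inhibited, 16951.5 to 22190.5 in TNF-inhibited and 21884 to 22706 in untreated arthritic animals.

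**Figure D5:**
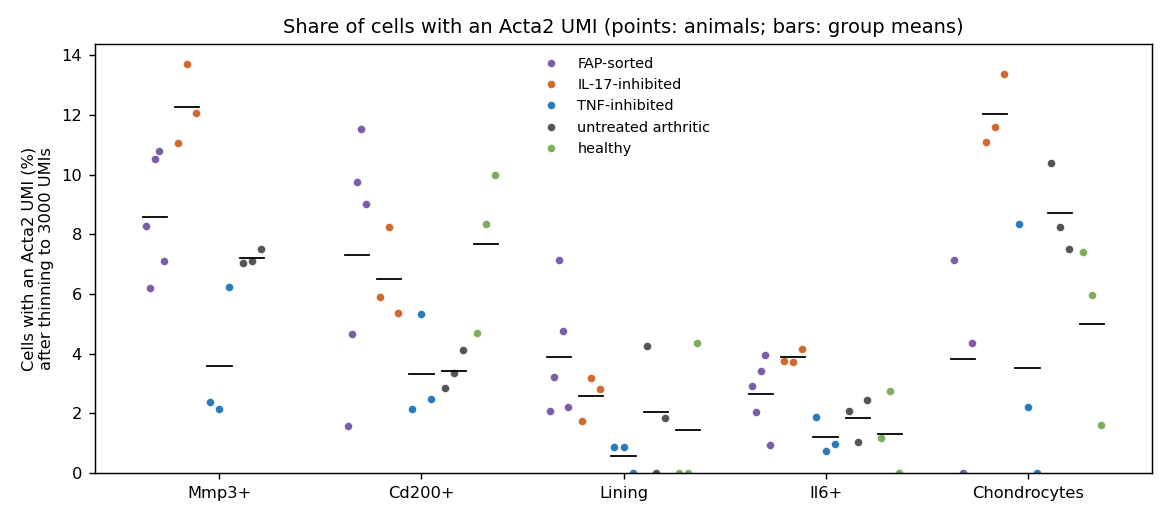
Percent of cells with at least 1 Acta2 UMI after thinning each cell to 3000 UMIs, by class and group; points are animals and bars are group means. In Mmp3+ cells the means were 12.3% in IL-17-inhibited, 3.58% in TNF-inhibited and 7.22% in untreated arthritic animals.

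Most fibroblasts held no Acta2 UMI. The 5% of fibroblasts richest in Acta2 held from 64.8% of an animal's Acta2 UMIs upwards. Counts this sparse give a high share in any case. In the untreated library's healthy animal, 27 cells held an Acta2 UMI and the richest 5% were 38 cells, which fixes the share at 100%. In TNF-inhibited animal 1 it was 66.8%, with at most 9 of 244 UMIs in 1 cell. The share therefore cannot show whether Acta2 was concentrated. Across 14 arthritic animals, 797 Mmp3+ cells had at least 3 Acta2 UMIs and were set beside the Mmp3+ cells with none, as a description of cells chosen by Acta2. Their median level of Tagln was 47.1 against 2.95 CPM, of Tpm2 125 against 40.1, of Tpm1 223 against 128 and of Cald1 552 against 369, each higher in 14 of 14 animals. Lrrc15 was at 14.3 against 2.53 and higher in 13 of 14 animals, and Myl9 at 11.9 against 1.95 and higher in 12 of 14. Cnn1 was higher in 3 of 14. Mmp3, the stromelysin gene that names the class, was at 16404 against 15954 and higher in 5 of 14 animals. The 7 mural genes summed to 72.0 against 56.4 CPM, higher in 10 of 14, and Rgs5 was at 8.89 against 11.8, higher in 6 of 14. Cells with Acta2 were deeper, at a median of 26444 against 20170 UMIs. Among Mmp3+ cells with no UMI of the 7 mural genes, 323 had at least 3 Acta2 UMIs, and Tpm2 and Cald1 were higher in them in 12 of 12 animals, Tagln and Myl9 in 11 of 12, Tpm1 and Lrrc15 in 9 of 12 and Cnn1 in 2 of 12.

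Arthritis itself was set against the healthy animals. Over all fibroblasts, 4 of 7 members rose in untreated arthritic animals and 1 fell, where 28.7% of 14348 genes were called, 14.4% higher and 14.3% lower. Acta2 rose in arthritis by 1.56 ± 0.23 on the log2 scale (adjusted p = 0.00027), Tpm1 by 0.69 ± 0.11 (adjusted p = 0.00040), Cald1 by 0.58 ± 0.10 (adjusted p = 0.00088) and Tpm2 by 0.47 ± 0.16 (adjusted p = 0.045). Lrrc15 fell by 1.43 on the log2 scale (SE 0.48, adjusted p = 0.038). Tagln, at 0.29 ± 0.33 (adjusted p = 0.56), and Myl9, at -0.44 ± 0.32 (adjusted p = 0.34), did not pass the test. The calls of Tpm2 and Lrrc15 were each lost in 4 of the 6 fits that left out an animal, with adjusted p up to 0.17 for Tpm2 and 0.18 for Lrrc15. Without the healthy animals of doubtful hashtags, Acta2, Tpm1 and Cald1 remained called, while Tpm2 was at 0.08 (adjusted p = 0.77) and Lrrc15 at -0.75 (adjusted p = 0.52).

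The make-up of the fibroblasts differed strongly between arthritis and health. Mmp3+ cells held 52.7% of fibroblast UMIs in untreated arthritic animals and 3.29% in healthy animals, and Pi16+ cells held 0.964% and 44.9%. Of the Acta2 difference of 14.8 CPM, the change of class shares made 22.9 and the change of level within classes made -8.05. Both parts rest on healthy Mmp3+ levels from 16, 17 and 24 cells, so they are uncertain. A fixed class mix could be set only for Lining, Il6+ and Cd200+ cells, because Mmp3+ and Pi16+ cells were too few in some animals. The Acta2 difference in that mix was 0.20 on the log2 scale (limma, adjusted p = 0.61). Of the members, Cald1 alone passed, at 0.37 (adjusted p = 0.042). These values therefore do not show the difference at constant shares of Mmp3+ and Pi16+ cells. Mmp3+ and Pi16+ cells could not be fitted for this contrast, because few animals of one group had 20 of them. In Lining cells Cald1 (1.36 ± 0.28, adjusted p = 0.0032) and Tpm1 (0.79 ± 0.15, adjusted p = 0.0015) rose in arthritis and Tagln fell as given above, 3 of 6 members in all, where 13.2% of genes were called. With only the untreated library's healthy animal edgeR called 0 of 6, with Cald1 at 1.024 ± 0.36 (adjusted p = 0.13) and Tpm1 at 0.71 ± 0.20 (adjusted p = 0.061), 5 members at an unadjusted p under 0.05, and 5.50% of genes called. By edgeR 0 of 7 members were called in Il6+ (background 6.91%) and in Cd200+ cells (background 4.27%), with 1 at an unadjusted p under 0.05 in each. Cald1 rose in the chondrocyte class (0.80 ± 0.22, adjusted p = 0.027, background 12.9%), and with that 1 healthy animal it was at 1.18 ± 0.34 (adjusted p = 0.087). Tpm1 fell in osteoblasts by 1.03 on the log2 scale (SE 0.21, adjusted p = 0.0087, background 5.54%), with 795 and 679 CPM in untreated arthritic animals against 1280 and 1944 in healthy animals. Both healthy animals in that fit are those of doubtful hashtags, with 21 and 32 osteoblasts. The untreated library's had 15 and could not enter it, so this call has no value without them.

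FAP-sorted cells were compared with cells of untreated arthritic animals, a contrast in which sort and library cannot be told apart. Over all fibroblasts, 4 of 7 members were called, all of them higher in FAP-sorted animals, where 42.9% of 13418 genes were called and 21.3% were called higher. These were Acta2 (log2 fold change 1.09 ± 0.28, adjusted p = 0.011), Lrrc15 (1.01 ± 0.36, adjusted p = 0.043), Myl9 (0.90 ± 0.21, adjusted p = 0.0059) and Cald1 (0.41 ± 0.08, adjusted p = 0.0023). Acta2 lost its call without untreated arthritic animal 2 (0.93, adjusted p = 0.055). It also lost it with the classes other than Pi16+ set to a fixed mix (0.55, adjusted p = 0.070). Lrrc15 lost its call in 6 of the 8 fits that left out an animal, with 0.61 without untreated arthritic animal 2. In Mmp3+ cells 5 of 7 members were higher, where 37.7% of genes were called and 19.2% were called higher. Myl9 there was at 1.60 ± 0.28 (adjusted p = 0.0016). In Lining cells 3 of 4 were higher (background 8.44%), with Acta2 at 2.03 ± 0.54 (adjusted p = 0.030). In Il6+ cells Tpm2 (-1.58 ± 0.23, adjusted p = 0.00048) and Tpm1 (-0.37 ± 0.12, adjusted p = 0.031) were lower, where 25.6% of genes were called. In osteoblasts, where 2 untreated arthritic animals entered the fit, 1 of 7 members, Myl9, was higher (1.68 ± 0.34, adjusted p = 0.042, background 0.681%). By edgeR 0 of 5 were called in Cd200+ cells (background 2.85%), with 2 at an unadjusted p under 0.05, and 0 of 4 in chondrocytes (background 1.21%), with 0 at that p. Tpm2 in Il6+ cells was at 14.0, 10.3, 14.1, 18.5 and 11.4 CPM in FAP-sorted animals against 24.9, 46.6 and 51.6 in untreated arthritic animals. The 9 skeletal muscle genes summed to 3.3 to 4.2 CPM in fibroblasts of FAP-sorted animals, beside 230 to 328 in untreated arthritic animals.

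Other genes of the contractile apparatus were counted over a list chosen by function. Of 36 tested genes of a list of 38 actomyosin and serum response factor genes, 7 were called under IL-17 inhibition against untreated arthritis, all higher, where 8.45% of all genes were called, and the median log2 difference was 0.21 against 0.0088 over all genes. They included Cnn2, a calponin of non-muscle cells (1.01 ± 0.19, adjusted p = 0.0086), Csrp1, a LIM protein on actin filaments (0.63 ± 0.15, adjusted p = 0.023), Actn1, alpha-actinin (0.52 ± 0.10, adjusted p = 0.0098) and Myl12a, a myosin light chain (0.39 ± 0.11, adjusted p = 0.037). TNF inhibition changed 1, Rock1, a kinase that acts on myosin, which fell (-0.34 ± 0.08, adjusted p = 0.031), no larger a share than the 5.55% of all genes called, with a median of -0.061. In arthritis 9 rose and 8 fell against healthy animals, where 28.7% of all genes were called, with Mylk, the myosin light chain kinase, at 1.94 ± 0.23 (adjusted p = 3.8e-05) and Myh10, a non-muscle myosin, at -1.33 ± 0.18 (adjusted p = 9.7e-05). With only the untreated library's healthy animal 4 rose and 5 fell of 37 tested, where 14.6% of all genes were called. In FAP-sorted cells 14 were higher and 5 lower than in untreated arthritis, where 42.9% of all genes were called, with Cnn2 at 1.42 ± 0.10 (adjusted p = 2.2e-05).

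The TGF-beta pathway list of 29 genes, all tested, had 5 genes called under TNF inhibition against untreated arthritis, all lower, where 5.55% of all genes were called and 3.02% were called lower. The list's median was -0.17 against -0.0025 over all genes. They included Thbs1, a matrix protein that activates latent TGF-beta (-1.42 ± 0.24, adjusted p = 0.0092), Ltbp2 and Ltbp1, of the latent TGF-beta binding family (-0.94 ± 0.18, adjusted p = 0.016, and -0.65 ± 0.10, adjusted p = 0.0077), and Tgfbi, a secreted target (-0.81 ± 0.12, adjusted p = 0.0077). Under IL-17 inhibition 4 rose and 2 fell, where 8.45% of all genes were called, and the median of 0.0088 was that of all genes. Ccn2, connective tissue growth factor, rose (0.71 ± 0.20, adjusted p = 0.042), as did Ltbp2 (0.61 ± 0.18, adjusted p = 0.048) and Tgfb1, the ligand (0.44 ± 0.09, adjusted p = 0.016), while Tgfbr3, a co-receptor, fell (-0.62 ± 0.07, adjusted p = 0.0017). In arthritis 7 rose and 10 fell against healthy animals, where 28.7% of all genes were called, with Inhba, an activin subunit, at 2.20 ± 0.28 and Tgfbi at -1.95 ± 0.12 on the log2 scale. With only the untreated library's healthy animal 4 rose and 6 fell (background 14.6%). In FAP-sorted cells 5 were higher and 9 lower than in untreated arthritis, near the 42.9% of all genes called.

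A list of 18 myofibroblast matrix genes was fully tested. TNF inhibition changed 1, Postn, the matrix protein periostin, which fell (-0.83 ± 0.19, adjusted p = 0.032), a share near the 5.55% of all genes called. IL-17 inhibition raised 3 and lowered 1, where 8.45% of all genes were called, with Fn1, fibronectin, at 0.86 ± 0.20 (adjusted p = 0.023), Col12a1 at 0.80 ± 0.15 (adjusted p = 0.0096), Itga11, a collagen receptor subunit, at 0.94 ± 0.21 (adjusted p = 0.020) and Lox, which cross-links collagen, at -0.76 ± 0.10 (adjusted p = 0.0021). In arthritis 7 rose and 4 fell against healthy animals, where 28.7% of all genes were called, among them Tnc, tenascin C, at 2.51 ± 0.15 (adjusted p = 2.0e-07). With only the untreated library's healthy animal 5 rose and 2 fell (background 14.6%). In FAP-sorted cells 16 of 18 were called against untreated arthritis, all higher, where 42.9% of all genes were called and 21.3% were called higher. Cthrc1 was at 2.48 ± 0.24 (adjusted p = 0.00012), and the list's median was 1.06 against -0.0052 over all genes. The list holds Fap, the gene of a sort marker, so this count is not independent of the sort.

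The genes whose fibroblast levels were most like those of Acta2 were named from Pearson's r on log2 values over the 9 arthritic animals of the unsorted libraries, as a description. They were Ntan1 at 0.966, Flii at 0.960, Plec at 0.959, Gnb4 and Tmod2 at 0.958, Fam177a and Mapk3 at 0.957 and Sept2 at 0.955. Of the members, Tpm1 was at 0.940, Tagln at 0.878, Lrrc15 at 0.849, Tpm2 at 0.781, Cald1 at 0.761 and Myl9 at 0.747. These animals share libraries within a treatment, and the values carry the treatment difference on which the members were chosen.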

How the data were processed

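Counts were deposited by the authors as 10x matrices of UMI counts per gene and barcode, with a metadata file that gives class, hashtag and treatment per cell. The submitters' processing notes name Cell Ranger 6.0.6 and build mm10, whereas the file headers of the FAP-sorted library give 5.0.0 and those of the others 6.0.0. The sources used here do not say how doublets were treated, and no caller was run. Raw counts of annotated cells were summed per animal and class. Classes with fewer than 20 cells in an animal were left out, except from fibroblast sums and from the split of differences over classes. Levels are CPM of the summed cells. Fold changes come from edgeR 4.0.16 (R 4.3.3) quasi-likelihood fits with TMM scaling over all genes passing the filter on low counts, adjusted by Benjamini-Hochberg with a threshold of 0.05. The groups of the unsorted libraries shared 1 fit, and FAP-sorted and untreated arthritic animals had another. The fits were tested on simulated data. DESeq2 1.42.0, other scalings, no filter, a replicate block, a library term, a fixed class mix, a depth of 5000 UMIs and leaving out animals were alternatives. The fixed mix used limma 3.58.1 on log2 values with a pseudocount of 1. It held the classes with at least 20 cells in every animal of both groups compared. This left out Pi16+ cells in every contrast and also Mmp3+ cells in arthritis against health. A term for sex, leave-one-out fits in Mmp3+ cells, fits in chondrocytes and osteoblasts, Tagln without the richest cell, and fits per class and per list with 1 healthy animal were chosen after seeing the data. The members and lists were chosen with earlier results of these data known. Text names all members, at most 4 called genes of largest change per list and comparison, and the 8 genes most like Acta2. Counting error alone limits the precision of low counts, and most p-values rest on 3 to 5 animals per group. Osteoblast fits held 2 healthy and 2 untreated arthritic animals. Fits with only the untreated library's healthy animal held 1 healthy animal, and leave-one-out fits held 1 animal fewer in a group.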

Additional observations from a re-analysis of the deposited data

Results flagged for a closer look

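In groups of 5 FAP-sorted animals, one animal stood far from the other 4 in 9 of 53 combinations of member and class examined. The rule's nominal rate of 1 in 20 holds for normally distributed levels. Sparse counts are not so distributed, and the combinations share animals, so the 9 flags cannot be set against that rate. Cnn1 had 21 UMIs in the whole FAP-sorted library, so its flags rest on very few UMIs. The flagged animal's level in CPM was 65.8 for Tagln in Lining cells, 139 for Tagln in osteoblasts, 19.3 for Myl9 in Lining cells and 3.91 for Lrrc15 in Lining cells. It was 7.42 for Lrrc15 and 2.45 for Cnn1 in Cd200+ cells, 0.930 for Cnn1 in Pi16+ cells, 110 for Tpm1 in Il6+ cells and 435 for Tpm1 in osteoblasts, where it was the lowest.

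In 3 cases every animal moved one way in one class and the opposite way in another, and the difference between the classes was not tested. For Tpm1, the ratio of mean levels of IL-17-inhibited to untreated arthritic animals was 1.28 in Mmp3+ cells and 0.897 in Il6+ cells. The Tpm1 ratio of untreated arthritic to healthy animals was 1.499 in Lining cells and 0.457 in osteoblasts, where both healthy animals are those whose hashtag assignment is doubtful, with 21 and 32 osteoblasts. For Tpm2, the ratio of FAP-sorted to untreated arthritic animals was 2.25 in Lining cells and 0.333 in Il6+ cells.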

How the results depend on the processing

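Treatment and library coincide, and the few animals per group limit every call. With a library term, 0 members were called under TNF inhibition (4 in the report) and 0 under IL-17 inhibition (2 in the report), and 3 in arthritis against health (5 in the report). The fixed class mix left out Pi16+ cells, and in arthritis also Mmp3+ cells. With it the counts were 0, 0 and 1, and 3 for FAP-sorted cells (4 in the report). Without cells holding a mural UMI they were 1 under TNF inhibition, 3 under IL-17 inhibition, 3 in arthritis and 5 for FAP-sorted cells. With only the untreated library's healthy animal, 3 were called in arthritis. With no filter or with DESeq2, 3 were called under IL-17 inhibition. Leaving out 1 animal gave 1 to 3 under TNF inhibition, 0 to 2 under IL-17 inhibition, 3 to 5 in arthritis and 2 to 4 for FAP-sorted cells. Over all genes, the fits without 1 animal called 3125 to 3674 in arthritis and 4330 to 6350 for FAP-sorted cells. Where this section gives no count over all genes from the same fit, a member count is a description only. The members' median between IL-17-inhibited and TNF-inhibited animals, 1.014, was 0.70 with the fixed mix, 0.82 with a term for sex, and 0.73 to 1.31 with an animal left out. Asking for 50 cells per class gave no value in arthritis, because Lining cells, which held all 3 calls, could not be fitted with 49, 42 and 23 of them in the healthy animals. The share of Mmp3+ cells with an Acta2 UMI, thinned to 5000, was 12.9% in FAP-sorted, 16.9% in IL-17-inhibited and 10.6% in untreated arthritic animals; unthinned it was 28.9%, 37.1%, 13.2% in TNF-inhibited and 29.2%. Over all genes, 797 were called under TNF inhibition, against 1440 with DESeq2, 0 with a library term or fixed mix, where 799 and 1742 had an unadjusted p under 0.05, and 105 to 781 with an animal left out. Under IL-17 inhibition 1212 were called, against 0 with a library term, 75 with the fixed mix, 536 without cells with a mural UMI and 326 to 754 with an animal left out. In arthritis 4116 were called, against 2317 with a library term, 1974 with the fixed mix and 2259 with 1 healthy animal.

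Single values that changed direction were these, on the log2 scale. Tagln in arthritis was -0.21 without untreated arthritic animal 2 and -0.04 without the first healthy animal (up to 0.48 with another animal left out), -0.017 without cells with a mural UMI and -0.86 with the fixed mix. Tagln in FAP-sorted cells was -0.022 without untreated arthritic animal 3 (0.66 without animal 2) and -0.059 with the fixed mix, and under IL-17 inhibition it was -0.057 with a library term. Tpm2 under TNF inhibition was 0.073 without cells with a mural UMI and 0.12 with a library term, and under IL-17 inhibition 0.18 and 0.49. Tpm1 in FAP-sorted cells was 0.21 without cells with a mural UMI. Myl9 in Mmp3+ cells under TNF inhibition was 0.09, 0.16 and 0.01 without untreated arthritic animal 1, untreated arthritic animal 2 or TNF-inhibited animal 3 (lowest -0.31, without untreated arthritic animal 3). The cause was not tested. With hashtag number as a replicate block, 4 and 2 members were still called. Same-numbered animals correlated at -0.264 to 0.219, against -0.175 to 0.250 for different numbers, and 4 of 9 animals correlated best with their own number, so the number does not pair them.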

Other observations

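Of the 7 mural genes and the 3 added to them, 9 were tested in fibroblasts. Under TNF inhibition 2 were called against untreated arthritis, Notch3, a receptor of mural cells, and Des, desmin. Both fell, where 5.55% of all genes were called and 3.02% were called lower. The log2 fold change was -1.20 ± 0.19 for Notch3 (adjusted p = 0.0084) and -1.15 ± 0.25 for Des (adjusted p = 0.027). Under IL-17 inhibition 1 of the 9 was called, a share near the 8.45% of all genes called. This was Cspg4, which rose by 0.58 ± 0.11 (adjusted p = 0.0098). Against healthy animals, 2 of the 9 rose and 3 fell in untreated arthritis, where 28.7% of all genes were called. Among them Myh11 fell by 3.39 and Rgs5 by 1.49 on the log2 scale (adjusted p = 0.0045 and 0.0044), while Notch3 rose by 0.70 ± 0.22 (adjusted p = 0.030). Ndufa4l2 was at 1.58 and Cspg4 at -0.69 in the fit with only the untreated library's healthy animal. With only the untreated library's healthy animal, Rgs5 was at -1.73 (adjusted p = 0.0058), Myh11 at -1.33 (adjusted p = 0.27) and Notch3 at 0.61 (adjusted p = 0.24).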
